A study of Mus musculus with 10 samples.

Results

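The immediate early stress genes comprised 10 genes, namely Atf3, the AP-1 genes Fos, Fosb, Jun, Junb and Jund, the zinc finger genes Egr1, Egr2 and Egr3, and Ier2. They are 10 of the 22380 protein-coding genes, and of the 37310 genes of any type, in the GENCODE annotation of NCBIM37 (mm9). They were taken by symbol and chosen by their measured values, which were the bases covered by H3K27me3 peaks from 5 kb upstream of the transcription start site (TSS) to the gene end in each of 5 peak lists. Atf3 was named in the choice because it lay at the widest peak of the parental list. The covered bases are therefore given as a description, and no difference between lines or genes was tested.

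H3K27me3 was mapped by ChIP-seq in a mouse Eμ-Myc Cdkn2a-/- B-cell lymphoma line of strain C57BL/6J and in the lines R100, R500, R1000 and R4000, which were derived from it in rising doses of mafosfamide. In the Eμ-Myc model an immunoglobulin heavy chain enhancer drives Myc in the B lineage, and all 5 lines, the parental one included, lack the tumour suppressor locus Cdkn2a. Mafosfamide is an alkylating agent related to cyclophosphamide, and the names of the resistant lines give their dose, 100, 500, 1000 or 4000 nM. The resistant lines are isolates of 1 escalation of 1 parental line, and chromatin was collected from cells growing without mafosfamide.

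The deposited data are 1 list of peaks per line, which gives positions and no height, score or read count, so depth is unknown and there is no spread between replicates. The lists hold 10778 distinct peaks in the parental line, 25180 (R100), 21888 (R500), 9595 (R1000) and 6820 (R4000). They cover 1.63, 5.04, 4.53, 1.61 and 1.07 Mb, which is 3.09 (R100), 2.78 (R500), 0.988 (R1000) and 0.658 (R4000) times the parental length, with a median peak of 100 bp in each list. The length of the lists thus moved with the line, its part in the differences between lines was not tested, and all 4 comparisons share the parental list. Cdkn2a had 0 covered bases in each list, which does not check the deletion, since an intact gene without the mark would look the same. The B-cell marker gene Ebf1 was covered in R100, over 900 bp, and in R500, over 350 bp, and in no other list. The lists hold no RNA level, so the labelled cell type could not be checked against expression.

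Immediate early genes are transcribed within minutes of a growth factor or stress signal, without new protein synthesis, and most encode transcription factors. Proteins of the Fos and Jun families pair through leucine zippers as AP-1, Atf3 is a stress-induced member of the ATF/CREB family that can pair with Jun proteins and often represses its targets, and EGR proteins bind GC-rich sites through zinc fingers. H3K27me3, a trimethyl mark on histone H3, is placed by polycomb repressive complex 2 (PRC2) and is found at CpG-rich promoters of genes that are silent or poised.

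A gene was counted as covered where peaks took up at least 150 bp of its window, that is 3 bins of the 50-bp grid on which all peaks start and end. In the parental line 5 of the 10 genes were covered, namely Atf3, Fos, Jun, Egr2 and Egr3, beside 7.67% of protein-coding genes. In R100 8 were covered beside 21.7%, with Fosb, Egr1 and Ier2 added, and in R500 7 were covered beside 17.0%, with Fosb and Egr1 added. In R1000 6 were covered beside 8.86%, with Ier2 added, and in R4000 5 were covered beside 7.05%, the same 5 as in the parental line. Junb and Jund were covered in none. With any covered base counted, the numbers were 5, 8, 8, 6 and 5 from the parental line to R4000, beside 12.9%, 34.2%, 27.2%, 16.1% and 14.0% of protein-coding genes. In the 2 kb up to and past the TSS, 5, 8, 6, 6 and 5 genes reached 150 bp beside 5.25%, 17.4%, 13.3%, 6.92% and 5.50%. In the 5 kb upstream alone, Atf3, Fos, Egr2 and Egr3 did so in each line, that is 4 of the 10, beside 3.64%, 9.13%, 8.16%, 3.93% and 2.73%. Over all 37310 annotated genes the background of the full window was 5.82%, 15.8%, 12.7%, 6.63% and 5.39%. Because covered bases entered the choice of the genes, nothing is read from the distance between these counts and the background. At the limit lay Fosb in R500, Egr1 in R100 and Ier2 in R1000, each at 150 bp. Ier2 in R500 lay well below it, at 21 bp of a 50-bp peak that crosses the gene end.

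**Figure D1:**
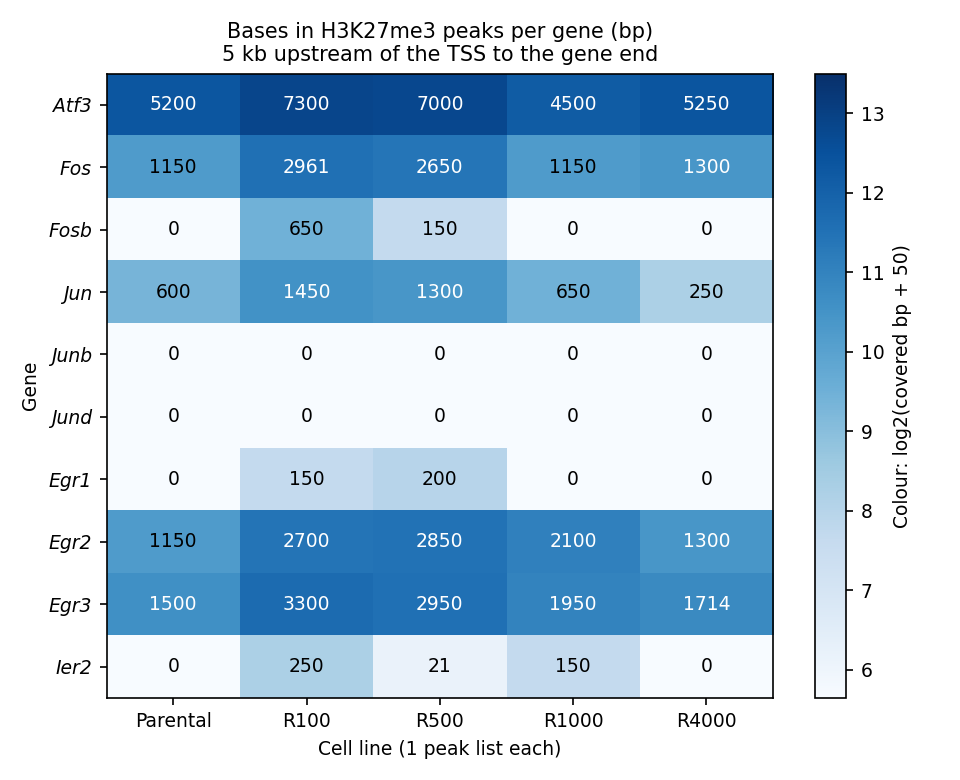
H3K27me3-covered bases of each of the 10 genes (rows) in each line (columns), from 5 kb upstream of the TSS to the gene end, with the value in bp printed in each cell and the colour on a log scale. Atf3 holds the highest value of each column, from 4500 bp in R1000 to 7300 bp in R100, and Junb and Jund are at 0 in all 5 lines.

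All but 1 of the 10 genes have a CpG-rich promoter, defined as a GC content of at least 55% and an observed/expected CpG ratio of at least 0.65 in the 1 kb centred on the TSS. The exception is Jund, whose annotated start lies in sequence of 46.6% GC with a ratio of 0.240, and Egr1 is the richest at 67.7% GC. Among protein-coding genes 35.0% have such a promoter, and the median GC content is 54.8%. Within the 7828 CpG-rich protein-coding genes the covered shares were 11.6% in the parental line, 34.4% (R100), 26.6% (R500), 14.6% (R1000) and 12.3% (R4000). Junb, at 61.9% GC and a ratio of 0.723, is as CpG-rich as Fos at 61.9% and 0.727, and yet Junb was uncovered in each list and Fos was covered in each.

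**Figure D2:**
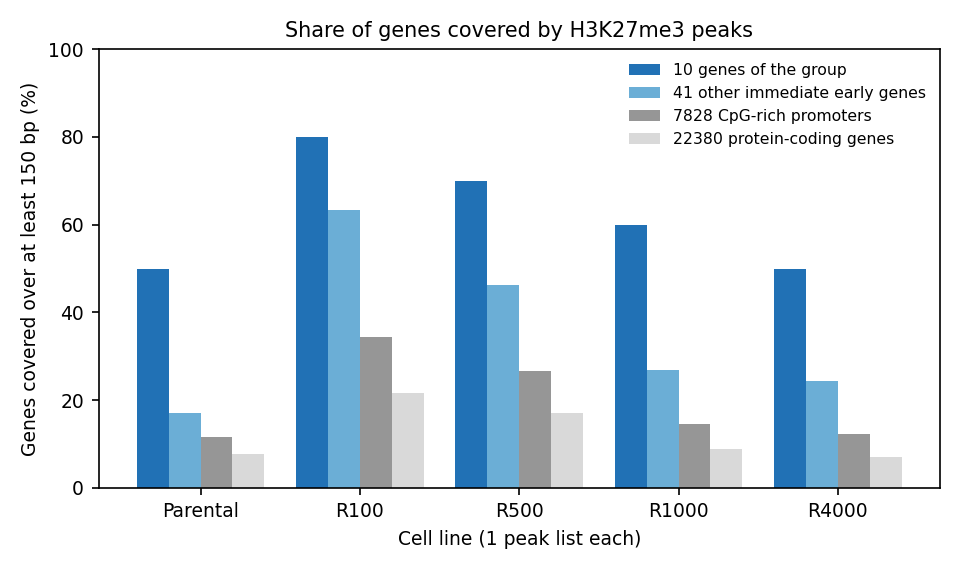
Percent of genes covered over at least 150 bp in each line, as bars for the 10 genes of the group, for 41 other immediate early genes, for the 7828 protein-coding genes with a CpG-rich promoter and for all 22380. The 10 genes lie between 50% and 80%, the 41 between 17.1% and 63.4%, and protein-coding genes between 7.05% in R4000 and 21.7% in R100.

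Atf3 (ENSMUSG00000026628.8, minus strand, chr1:192994175-193007219) had the most covered bases of the 10 genes in each line. Its window was also the longest of the 10, at 18045 bp. As a share of the window, Egr3 lay above Atf3 in R100, at 42.8% against 40.5%, and in R1000, at 25.3% against 24.9%. Atf3 had the highest share in the other lines. Within 2 kb of the TSS, a window equal for all genes, Atf3 had the most covered bases in each line. Over the full window, from 5 kb upstream to the gene end, Atf3 had 5200 bp in the parental line, 7300 bp (R100), 7000 bp (R500), 4500 bp (R1000) and 5250 bp (R4000). R100 and R500 were the highest, R1000 was the lowest, and R4000 lay next to the parental line. The ratios to the parental value were 1.40, 1.35, 0.865 and 1.01 in the order of dose, so in R100 and R500 they were below the 3.09 and 2.78 of the whole lists and in R4000 above the 0.658. The parental peak that led to the choice of Atf3 enters the base of these ratios. Per Mb of each list, Atf3 held 3186 bp in the parental line, 1450 bp (R100), 1544 bp (R500), 2790 bp (R1000) and 4890 bp (R4000). The order of the lines thus depended on the scale, with R4000 highest and R100 lowest per Mb of list. Among protein-coding genes Atf3 ranked 13 in covered bases in the parental line, 29 (R100), 32 (R500), 15 (R1000) and 8 (R4000).

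The widest single block of this cover lay just upstream of the TSS. In the parental line it is the peak that led to the choice of the gene, 3250 bp wide at chr1:193007451-193010700, or positions -3481 to -232 counted from the TSS base as 0 in the direction of transcription. Next in width in the parental list came peaks of 2900 bp at chr6:68163351-68166250, 51942 bp from the nearest gene start, that of an immunoglobulin kappa variable gene, and of 2800 bp at chr6:52201801-52204600, 5588 bp from the start of Hoxa11. At Atf3 the widest peak measured 3950 bp (R100 and R500), 2300 bp (R1000) and 2550 bp (R4000), and in all 4 it ended at position -182. It extended furthest from the gene, to position -4131, in R100 and R500, and it stopped at -2481 in R1000 and -2731 in R4000. By width this peak ranked 6 (R100), 9 (R500), 8 (R1000) and 2 (R4000) in the resistant lists.

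The TSS of Atf3 itself was uncovered in each list. The stretch without a peak around it was 550 bp in the parental line, 250 bp (R100 and R500) and 400 bp (R1000 and R4000), so it was shorter in each resistant line than in the parental one. Downstream of it, peaks continued into the gene. Intronic bases made up 28.8% of the cover in the parental line, 43.4% (R100), 41.0% (R500), 29.4% (R1000) and 34.7% (R4000), and no coding base was covered in any line. The first peak past the TSS began at position 319 in the parental line, 69 (R100 and R500) and 219 (R1000 and R4000), and in R100 and R500 it was 900 bp and 850 bp wide against 150 bp in the parental line. The upstream part differed less, with 3700 bp in the parental line, 3950 bp (R100 and R500), 3150 bp (R1000) and 3400 bp (R4000).

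**Figure D3:**
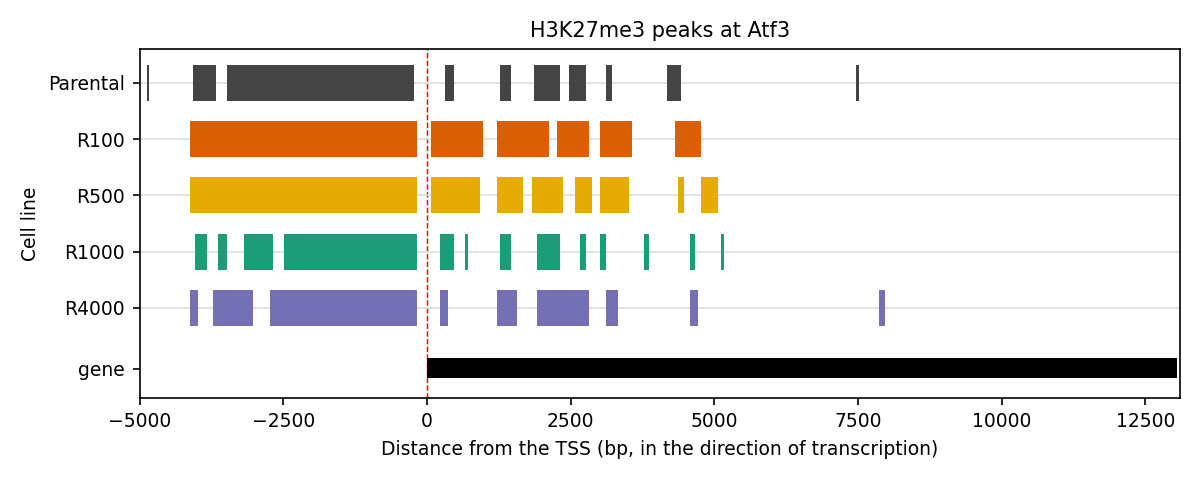
H3K27me3 peaks at Atf3 in the 5 lines, drawn to scale against the distance from the TSS in bp in the direction of transcription. The solid bar below is the whole gene, exons and introns together. The block upstream of the TSS is present in each line and ends at -232 in the parental line and -182 in the others, and the TSS is uncovered throughout.

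At Atf3 3100 bp were covered in each of the 5 lists, out of 8300 bp covered in at least 1, or 37.3%. Of the parental bases, 92.3% (R100 and R500), 73.1% (R1000) and 79.8% (R4000) were also covered in the resistant lines. The longest run common to the 5 lists was 2250 bp, from -2481 to -232. Its central 300 bases (chr1:193008426-193008725, minus strand, positions -1506 to -1207) are shown as the core of the block, with CpG dinucleotides in capitals, as in the covered stretches of the other genes. They hold 17 CpG at 58.7% GC.
Atf3, covered in each list: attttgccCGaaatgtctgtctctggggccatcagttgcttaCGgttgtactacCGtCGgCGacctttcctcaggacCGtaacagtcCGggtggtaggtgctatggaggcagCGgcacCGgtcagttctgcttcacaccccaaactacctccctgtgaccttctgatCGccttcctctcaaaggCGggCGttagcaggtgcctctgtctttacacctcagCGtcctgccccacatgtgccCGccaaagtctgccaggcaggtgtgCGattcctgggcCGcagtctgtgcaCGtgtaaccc
The bases next to the TSS that had no peak in any list (chr1:193007210-193007400, minus strand, positions -181 to 9) are shown for contrast, with ACGTCA, the core of a cAMP response element (CRE), in capitals. This stretch is more GC-rich at 64.4%, and the capitals cross the TSS, from -1 to 4.
Atf3, uncovered in each list: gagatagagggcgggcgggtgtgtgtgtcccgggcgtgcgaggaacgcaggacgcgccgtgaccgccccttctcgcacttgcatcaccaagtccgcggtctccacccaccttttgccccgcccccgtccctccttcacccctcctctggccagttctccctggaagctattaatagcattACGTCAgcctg

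The protein-coding genes whose 5 values were most like those of Atf3, by Euclidean distance of log2(covered bases + 50) over the 5 lists, were Hoxa11, Sp9, Hoxa13, Hoxa3 and Bahcc1. Hoxa11, a homeobox gene, lay at a distance of 0.272 with 5450, 7600, 7650, 5250 and 5100 bp from the parental line to R4000. Sp9, which encodes a zinc finger factor, lay at 0.463 with 5500, 7400, 8100, 5950 and 5000 bp. The other 3 lay at 0.533, 0.635 and 0.744. Batf3, another ATF-like gene, starts 84.9 kb from the Atf3 TSS on the opposite strand and had far less cover, with 400 bp in the parental line, 1700 bp (R100 and R500), 300 bp (R1000) and 250 bp (R4000).

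Fos (ENSMUSG00000021250.7, plus strand, chr12:86814840-86818223), which encodes the AP-1 subunit c-Fos, had 1150 bp in the parental line, 2961 bp (R100), 2650 bp (R500), 1150 bp (R1000) and 1300 bp (R4000). R100 and R500 stood above the other 3 lines, whose values lay within 150 bp of each other. The ratios to the parental value were 2.57, 2.30, 1 and 1.13. Per Mb of list the order turned, with 705 bp in the parental line, 588 (R100), 585 (R500), 713 (R1000) and 1211 bp (R4000). The cover was split between the upstream region and the gene, with 47.8% of it upstream in the parental line and 38.5% to 47.8% in the resistant lines. As at Atf3, the TSS base of Fos was in no peak, and the stretch without a peak around it was 1950 bp in the parental line, 750 bp (R100), 700 bp (R500), 1650 bp (R1000) and 1500 bp (R4000).

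The widest Fos peak lay inside the gene in each line, at 561 to 1160 in the parental line, 111 to 1560 (R100), 11 to 1260 (R500), 711 to 1110 (R1000) and 761 to 1210 (R4000). It was thus nearest to the TSS and widest in R100 and R500. Of the parental bases, 73.9% (R100 and R500), 65.2% (R1000) and 52.2% (R4000) were covered again, and 500 of 4061 bp were covered in each list. Of the 3 runs covered in each list, the longest was 350 bp inside the gene, at positions 761 to 1110, and its base composition is not given here. A shorter upstream run (chr12:86812651-86812750, plus strand, positions -2189 to -2090) was picked for its contrast in base composition with the core at Atf3. It holds 2 CpG at 45.0% GC and does not stand for the shared cover of Fos as a whole.
Fos, covered in each list: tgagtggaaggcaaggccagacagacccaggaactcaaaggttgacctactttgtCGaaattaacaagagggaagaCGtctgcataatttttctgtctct

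Jun (ENSMUSG00000052684.3, minus strand, chr4:94715725-94718913), a gene of 1 exon for the AP-1 subunit c-Jun, had the least cover of the 5 genes found in each list. It had 600 bp in the parental line and 1450 bp (R100), 1300 bp (R500), 650 bp (R1000) and 250 bp (R4000). R100 and R500 were again the highest, R1000 lay next to the parental line, and R4000 lay below it. The ratios to the parental value were 2.42, 2.17, 1.08 and 0.417. Per Mb of list, R1000 was the highest at 403 bp and R4000 the lowest at 233 bp, with 368 bp in the parental line, 288 (R100) and 287 bp (R500). Each covered base lay within the gene, and coding sequence made up 91.7% of the cover in the parental line, 69.1% (R100), 43.2% (R500), 86.5% (R1000) and 64.8% (R4000). A transcript on the other strand, BC042782, overlaps 5689 bp of the window of Jun, and 150 bp of the cover in R100 and 176 bp in R500 fell in it.

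The nearest peak upstream of Jun ended at position -53988 in R100 and at -2693688 or further out in the other 4 lines. Only 100 of 1950 bp were covered in each list, which makes Jun the least shared in position of these 5 genes, at 5.13%. Of the parental bases, 91.7% (R100), 75% (R500), 83.3% (R1000) and 16.7% (R4000) were covered again. The shared stretch (chr4:94717801-94717900, minus strand, positions 1013 to 1112) is coding sequence and holds 7 CpG at 60.0% GC.
Jun, covered in each list: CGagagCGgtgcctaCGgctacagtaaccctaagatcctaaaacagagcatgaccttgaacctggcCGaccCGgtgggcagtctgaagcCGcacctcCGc

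Fosb (ENSMUSG00000003545.2, minus strand, chr7:19888070-19895394), a further partner of Jun proteins, had 0 bp in the parental line, 650 bp (R100), 150 bp (R500) and 0 bp (R1000 and R4000). In R100 the cover was mainly 1 peak of 600 bp at positions 244 to 843, and R500 had the last 100 bp of the same stretch, at 744 to 843. Both lines also had a peak of 50 bp upstream, at -3256 to -3207 in R100 and -3306 to -3257 in R500. Past the end of Fosb, in the next 5 kb, peaks covered 50 bp in the parental line, 400 bp (R100), 200 bp (R500), 150 bp (R1000) and 100 bp (R4000), a stretch in which the annotation also places Gm17589.

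Junb (ENSMUSG00000052837.4, minus strand, chr8:87500811-87502617) and Jund (ENSMUSG00000071076.4, plus strand, chr8:73221638-73224515), which encode the other Jun proteins, had 0 bp in each list. The nearest peak to the TSS of Junb was 8867 bp downstream in R100 and at least 25917 bp away in the other lists, and for Jund it was at least 78613 bp away in all 5. The Jun family was therefore split, with Jun covered in each line and Junb and Jund in none. Among protein-coding genes, 74.9% were covered in no list, and 60.7% of those with a CpG-rich promoter.

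**Figure D4:**
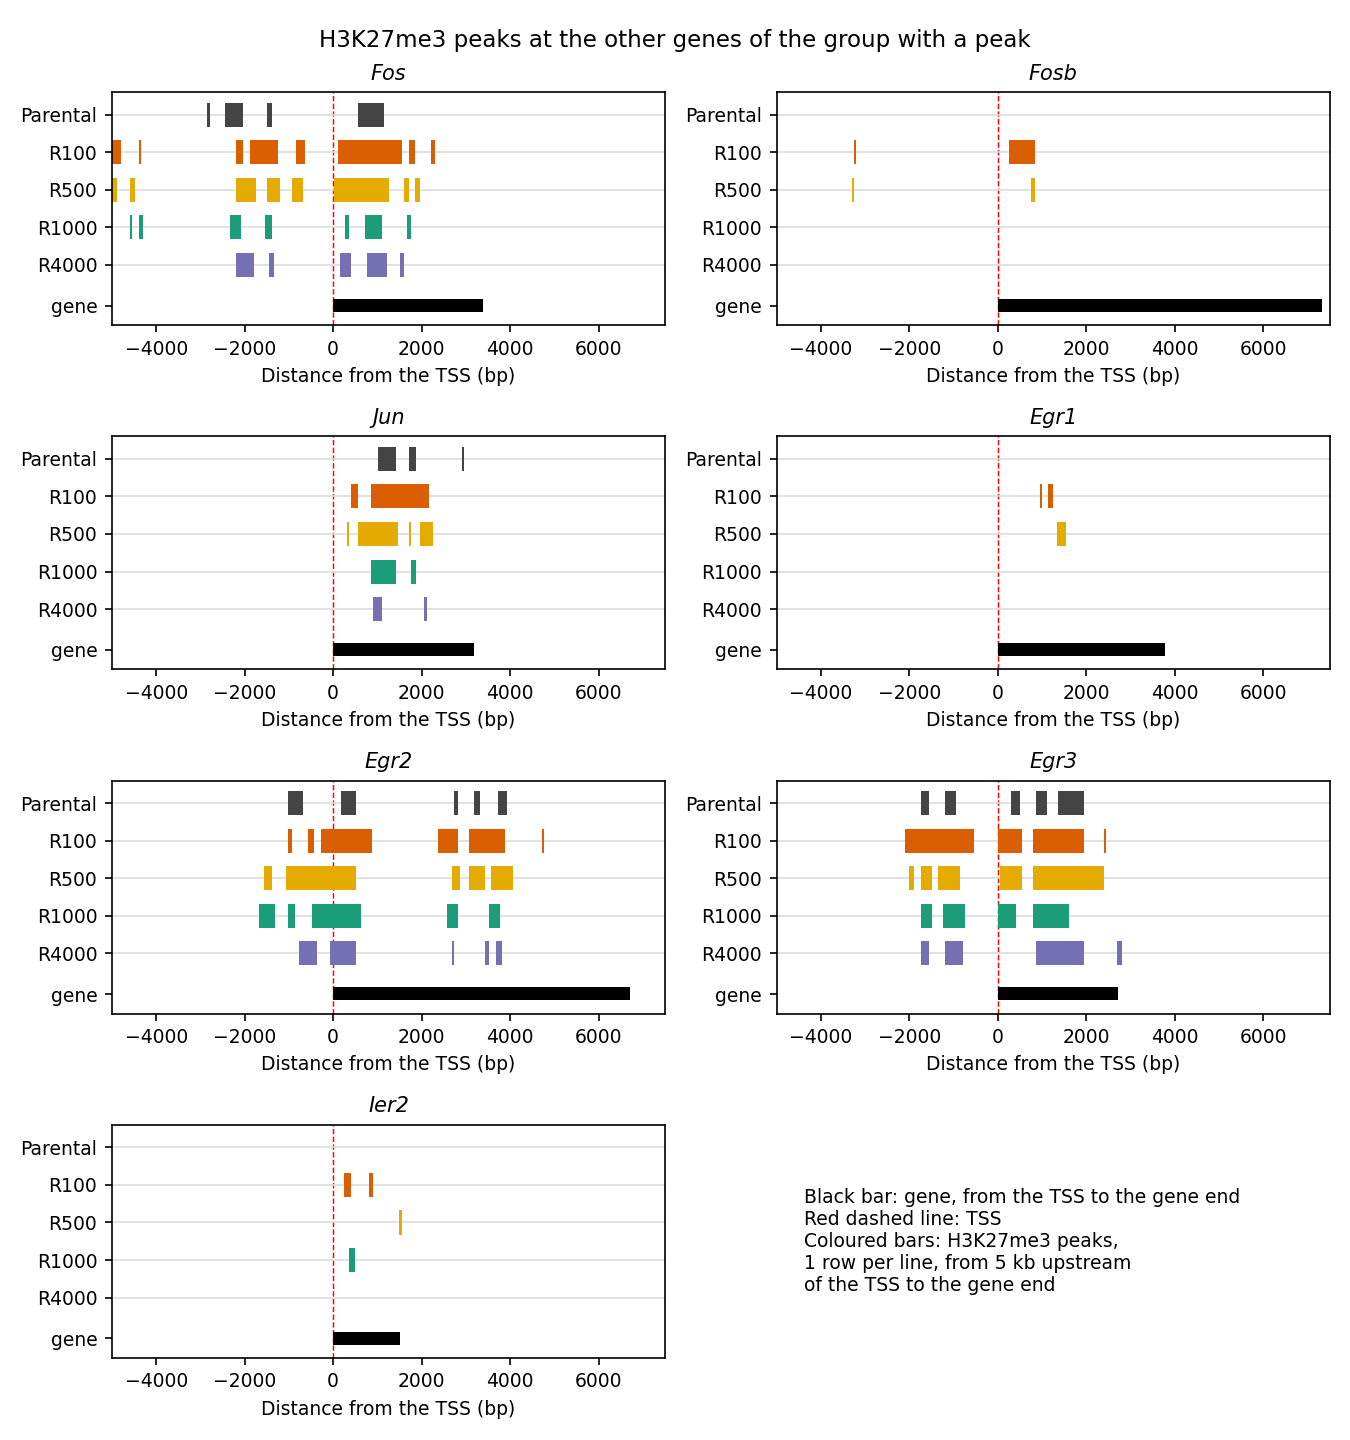
H3K27me3 peaks in the 5 lines at the other genes of the group that had a peak, drawn to scale against the distance from the TSS in bp in the direction of transcription. Peaks of Jun lie downstream of the TSS only, those of Egr2 and Egr3 lie on both sides, and Fosb, Egr1 and Ier2 have 1 or 2 peaks in each line where they had any.

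Egr2 (ENSMUSG00000037868.8, plus strand, chr10:66998223-67004936), a zinc finger factor known from hindbrain and myelin development and as a brake on lymphocyte activation, had 1150 bp in the parental line. The resistant lines had 2700 bp (R100), 2850 bp (R500), 2100 bp (R1000) and 1300 bp (R4000). All 4 were above the parental line, R4000 by the least. The ratios were 2.35, 2.48, 1.83 and 1.13. Per Mb of list, R100 at 536 bp and R500 at 629 bp lay below the parental line at 705 bp, and R1000 at 1302 bp and R4000 at 1211 bp lay above it. Egr2 differed from Atf3 and Fos at the TSS base of its gene record, which lay in a peak in each resistant line and in none in the parental line, where 850 bp around it were uncovered. The widest peak was 350 bp in the parental line, 1150 bp (R100), 1600 bp (R500), 1100 bp (R1000) and 600 bp (R4000).

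The start used for Egr2 is that of its gene record, and the transcript with the longest coding sequence starts 2394 bp further downstream. A second set of peaks lay close to that start, for example from 2378 to 2827 in R100 and from 2728 to 2827 in the parental line. That start lay in a peak in R100 only. The nearest peak past it began at 2728 in the parental line, 2678 (R500 and R4000) and 2578 (R1000). The TSS result for Egr2 thus holds for the start of the gene record. Of the parental bases at Egr2, 73.9% (R100), 100% (R500), 56.5% (R1000) and 47.8% (R4000) were covered again, and 400 of 3850 bp were covered in each list. The longest common run spanned positions 178 to 527, and 300 bases of it (chr10:66998426-66998725, plus strand) are shown because the peaks over the TSS in the resistant lines all include them. They fall mostly in an intron, with 61 coding bases of annotated upstream-starting transcripts, and hold 21 CpG at 56.7% GC, the highest CpG count of the sequences shown.
Egr2, covered in each list: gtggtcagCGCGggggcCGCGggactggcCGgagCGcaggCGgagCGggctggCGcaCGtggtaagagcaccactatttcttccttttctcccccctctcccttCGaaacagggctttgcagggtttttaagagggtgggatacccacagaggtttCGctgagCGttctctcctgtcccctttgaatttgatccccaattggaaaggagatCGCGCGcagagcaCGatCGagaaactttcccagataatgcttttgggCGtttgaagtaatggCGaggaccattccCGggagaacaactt

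Egr3 (ENSMUSG00000033730.2, plus strand, chr14:70477252-70479964), which acts with Egr2 in lymphocytes, had 1500 bp in the parental line and 3300 bp (R100), 2950 bp (R500), 1950 bp (R1000) and 1714 bp (R4000). All resistant lines were above the parental line, and the value was lower at each higher dose. The ratios were 2.20, 1.97, 1.30 and 1.14. Per Mb of list the order turned, with 919 bp in the parental line, 655 (R100), 651 (R500), 1209 (R1000) and 1597 bp (R4000). After Atf3, Egr3 kept the most bases in common, with 950 of 3764 bp covered in each list, or 25.2%, and 100% of the parental bases were covered in R100 and R500, 70.0% in R1000 and 86.7% in R4000. The TSS base was in a peak in R100 and R1000 and in none of the other 3. Past the gene end, the next 5 kb held 500 bp in the parental line, 600 bp (R100 and R500), 0 bp (R1000) and 86 bp (R4000).

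Part of the Egr3 cover lay upstream, with 450 bp in the parental line, 1551 bp (R100), 850 bp (R500), 751 bp (R1000) and 600 bp (R4000). Of the 4 runs common to the 5 lists at Egr3, the longest (chr14:70476051-70476300, plus strand, positions -1201 to -952) lies there and is shown, a whole parental peak of 250 bp. It holds 6 CpG at 49.2% GC and is thus poorer in CpG than the stretch at Egr2.
Egr3, covered in each list: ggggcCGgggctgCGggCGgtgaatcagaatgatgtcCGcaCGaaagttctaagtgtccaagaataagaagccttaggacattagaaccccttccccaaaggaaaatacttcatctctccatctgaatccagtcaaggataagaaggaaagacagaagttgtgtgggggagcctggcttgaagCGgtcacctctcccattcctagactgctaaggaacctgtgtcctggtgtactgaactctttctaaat

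Egr1 (ENSMUSG00000038418.6, plus strand, chr18:35020861-35024638), the EGR gene most often used as a marker of a fresh stimulus, had 0 bp in the parental line, 150 bp (R100), 200 bp (R500) and 0 bp (R1000 and R4000). The peaks of R100, at 940 to 989 and 1140 to 1239, lay in the intron, and that of R500, at 1340 to 1539, lay in coding sequence, so the covered bases of these lines did not coincide. Ier2 (ENSMUSG00000053560.4, minus strand, chr8:87185230-87186751), an early response gene for a nuclear protein, had 0 bp in the parental line, 250 bp (R100), 21 bp (R500), 150 bp (R1000) and 0 bp (R4000). Its peaks lay at 251 to 400 and 801 to 900 in R100 and at 351 to 500 in R1000, where 50 positions were shared, and at 1501 to 1550 in R500. A noncoding transcript on the other strand, Gm2529, overlaps 2725 bp of the window of Ier2. The EGR genes were thus split like the Jun genes, with Egr2 and Egr3 covered in each line and Egr1 at no more than 200 bp.

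Set side by side, being covered in each of the 5 lists was shared by Atf3, Fos, Jun, Egr2 and Egr3 and by 973 protein-coding genes in all, or 4.35% (7.45% of those with a CpG-rich promoter). Fosb and Egr1 were covered in R100 and R500 only, as were 4.42% of protein-coding genes and 7.04% of CpG-rich ones. Ier2 was covered in R100 and R1000 only, as were 0.322% and 0.562%. In the 973 genes covered throughout, the median ratio to the parental value was 2.62 (R100), 2.57 (R500), 1.09 (R1000) and 0.769 (R4000). Atf3 at 1.40 and 1.35 lay below the lower quartiles of these ratios in R100 and R500, which were 1.79 and 1.78, whereas Fos, Jun, Egr2 and Egr3 lay between the quartiles in both lines. The parental peak that led to the choice of Atf3 enters the base of its ratio, so nothing is read from its place. The parental cover of Atf3, 5200 bp, also stood far above the median of 700 bp in the 973 genes. Hoxa11, with 5450 bp in the parental line, had 7600 bp (R100) and 7650 bp (R500). It was picked as the gene nearest to Atf3 over the 5 lists, so its likeness to Atf3 follows from the choice. In R4000, where 30.9% of the 973 genes were above their parental value, Atf3, Fos, Egr2 and Egr3 were above it with ratios from 1.01 to 1.14, and Jun was below. The upper quartile in R4000 was 1.17, so the 4 genes lay within the middle of the distribution, and Jun at 0.417 lay below the lower quartile of 0.5. In R1000 Egr2 at 1.83 lay above the upper quartile of 1.57.

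**Figure D5:**
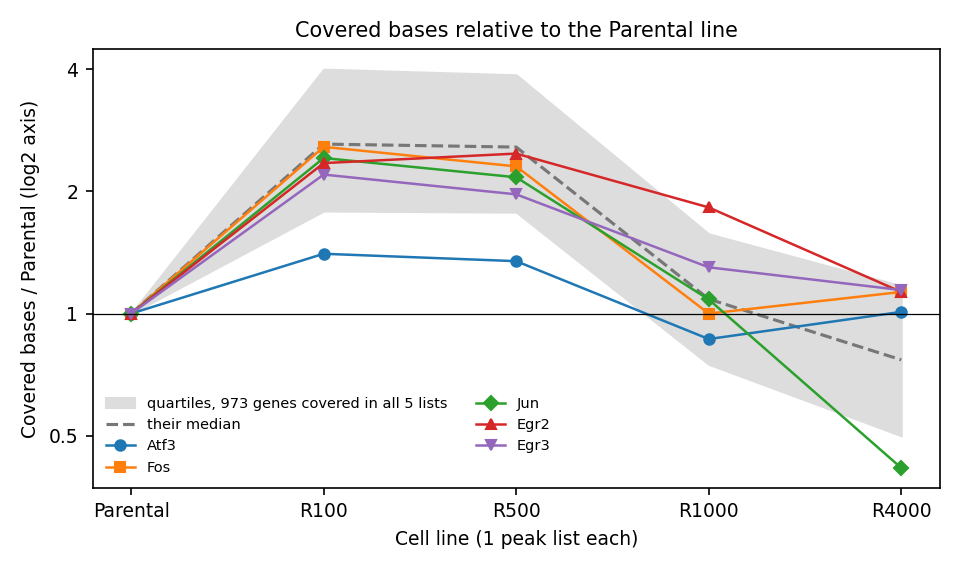
Ratio of covered bases in each resistant line to the parental line (log axis) for the 5 genes of the group covered in each list, beside the median and quartiles of the 973 protein-coding genes covered in each list. Atf3 lies below the quartile range in R100 and R500, Egr2 lies above it in R1000, and Jun lies below it in R4000 at 0.417. The parental peak that led to the choice of Atf3 enters the base of its ratio.

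Summed over the 10 genes, peaks covered 9600 bp in the parental line, 18761 bp (R100), 17121 bp (R500), 10500 bp (R1000) and 9814 bp (R4000). R100 and R500 were highest and the other 3 were close to each other, with ratios to the parental sum of 1.95, 1.78, 1.09 and 1.02. Atf3 alone gave 54.2% of the sum in the parental line, 38.9% (R100), 40.9% (R500), 42.9% (R1000) and 53.5% (R4000). Without Atf3 the sums were 4400, 11461, 10121, 6000 and 4564 bp, with ratios of 2.60, 2.30, 1.36 and 1.04. Atf3 thus made up a large share of the group sum. When it was left out, the ratios in R100 and R500 were nearer to those of the whole lists. The ratios in R1000 and R4000 were then further from those of the whole lists, which were 0.988 and 0.658.

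The place of the peaks relative to the TSS base was compared with that of other genes covered within 2 kb of the TSS. Among such protein-coding genes, the TSS base lay in a peak in 9.44% in the parental line, 15.0% (R100), 16.1% (R500), 10.3% (R1000) and 8.69% (R4000). Of the 10 genes, it did so in 0 of 5 in the parental line, in 2 of 8 in R100 (Egr2 and Egr3), in 1 of 6 in R500 (Egr2), in 2 of 6 in R1000 (Egr2 and Egr3) and in 1 of 5 in R4000 (Egr2). Egr2 is counted here at the start of its gene record. The start of its transcript with the longest coding sequence lay in a peak in R100 only. An uncovered TSS base beside nearby peaks was therefore common among covered genes in these lists.

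The 300 bases upstream of each TSS were searched on both strands for known sites of factors that act in stress and growth responses. They were the CRE TGACGTCA (in 2.0% of the 22380 protein-coding promoters), its core ACGTCA (7.85%), the AP-1 site TGACTCA (4.50%), the variant TGACATCA (2.99%), the E-box CACGTG (7.39%), the EGR site GCGGGGGCG (3.43%), TATAAA (14.6%) and the CArG box of serum response factor (1.62%). The CRE contains the core on both strands, so a gene with the first is counted for both. Of the 10 genes, Ier2 has the full CRE at -45 to -38, Fos has a core at -66 to -61, read there as TGACGT from the other strand, and TATAAA at -33 to -28, Jun has TGACATCA at -45 to -38, and Junb has TATAAA at -30 to -25. Fosb has an EGR site at -50 to -42 and a CArG box, Egr1 has 2 cores and 2 CArG boxes, and Atf3, Jund, Egr2 and Egr3 have none of these letters in this window. The window follows the start of the gene record and no other start was searched. For Egr2 the transcript with the longest coding sequence starts 2394 bp further downstream. The annotated start of Jund lies in CpG-poor sequence, so for these 2 genes the result may not describe the promoter in use. The 200 bases upstream of 4 of the genes are shown with these motifs in capitals, because Fos and Jun were covered in each list, Ier2 in 2 lists and Junb in none, and none of these stretches was itself in a peak of any list. A match to these letters is a description and not a bound site.
Fos (chr12:86814640-86814839, plus strand): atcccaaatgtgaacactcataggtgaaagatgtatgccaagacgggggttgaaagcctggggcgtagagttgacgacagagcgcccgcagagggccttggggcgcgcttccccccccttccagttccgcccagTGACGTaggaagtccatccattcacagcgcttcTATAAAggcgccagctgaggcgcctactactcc
Jun (chr4:94718914-94719113, minus strand): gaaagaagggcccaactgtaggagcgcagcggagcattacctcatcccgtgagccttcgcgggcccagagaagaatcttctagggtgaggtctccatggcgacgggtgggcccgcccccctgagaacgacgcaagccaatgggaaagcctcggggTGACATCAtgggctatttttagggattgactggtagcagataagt
Ier2 (chr8:87186752-87186951, minus strand): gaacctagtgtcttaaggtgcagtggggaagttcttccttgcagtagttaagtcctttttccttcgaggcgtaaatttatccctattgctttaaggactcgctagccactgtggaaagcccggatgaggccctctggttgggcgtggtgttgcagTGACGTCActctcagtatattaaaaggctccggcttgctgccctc
Junb (chr8:87502618-87502817, minus strand): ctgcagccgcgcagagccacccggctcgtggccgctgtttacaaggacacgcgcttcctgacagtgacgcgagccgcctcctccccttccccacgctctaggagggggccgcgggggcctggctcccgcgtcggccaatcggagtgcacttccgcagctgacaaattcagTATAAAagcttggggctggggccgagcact

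Other genes of these families were described from lists by symbol. Of 22 further AP-1 and ATF symbols (23 gene entries, Atf7 having 2), the parental line had 3 entries covered (13.0%), R100 had 10 (43.5%), R500 had 9 (39.1%), and R1000 and R4000 had 5 each (21.7%). The shares over all protein-coding genes were 7.67%, 21.7%, 17.0%, 8.86% and 7.05% from the parental line to R4000, and over those with a CpG-rich promoter 11.6%, 34.4%, 26.6%, 14.6% and 12.3%. The parental 3 were Fosl2, Batf3 and Fosl1, the 5 of R1000 were Fosl2, Batf3, Mafa, Atf4 and Jdp2, and the 5 of R4000 were Fosl2, Batf3, Mafa, Fosl1 and Atf6, of which only Fosl2 and Batf3 were named by rule and not after their values were seen. Covered in each list were Fosl2, a Fos-related AP-1 gene, with 1000, 2650, 1650, 1050 and 600 bp from the parental line to R4000, and Batf3. Maff, with 900 bp in R100 and 200 bp in R500, and Atf5, with 200 bp and 150 bp, were covered in R100 and R500 only. Of the 23 entries, 11 were covered in no list, beside 74.9% of protein-coding genes and 60.7% of CpG-rich ones. No gene of this list reached the covered bases of Atf3 in any line.

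Of 41 other immediate early genes, the parental line had 7 covered (17.1%), R100 had 26 (63.4%), R500 had 19 (46.3%), R1000 had 11 (26.8%) and R4000 had 10 (24.4%), beside 7.67%, 21.7%, 17.0%, 8.86% and 7.05% of protein-coding genes and 11.6%, 34.4%, 26.6%, 14.6% and 12.3% of CpG-rich ones. The parental 7 were covered in each list. In none were 15 of the 41 genes covered, beside 74.9% of protein-coding genes and 60.7% of CpG-rich ones. Nr4a3, an orphan nuclear receptor gene, had the most covered bases of this list, with 3700 bp in the parental line, 5650 bp (R100), 6500 bp (R500), 4300 bp (R1000) and 2800 bp (R4000). The others were Dusp4, a MAP kinase phosphatase gene, Gadd45g, a DNA damage response gene, Ier3, Ier5l, Klf4 and Rhob. Ier3 had the lowest parental value of the 7, at 150 bp, and 1800 bp (R100), 1850 bp (R500), 1050 bp (R1000) and 750 bp (R4000). Covered in R100 and R500 only were Gadd45b, Klf2, Nab1, Nab2, Nr4a2 and Trib1, of which Nab1 and Nab2 encode corepressors of EGR proteins. Of these 6, all but Nab2 fall outside the limit of 8 named genes per list and were named after their values were seen.

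Of 20 upstream regulators and stress kinases, the parental line had 3 covered (15%), R100 had 10 (50%), R500 had 6 (30%), and R1000 and R4000 had 3 each (15%). The shares from the parental line to R4000 were 7.67%, 21.7%, 17.0%, 8.86% and 7.05% of protein-coding genes. For those with a CpG-rich promoter they were 11.6%, 34.4%, 26.6%, 14.6% and 12.3%. Mapk12 and Mapk11, which encode p38 kinases, were covered in each list, with 300, 1350, 1000, 650 and 350 bp for Mapk12 and 300, 400, 900, 450 and 250 bp for Mapk11. Mapk8, which encodes the Jun kinase JNK1, Elk4, a partner of serum response factor, and Eif2ak3, a kinase of the unfolded protein response upstream of Atf4 and Atf3, were covered in R100 and R500 only. Mapk8 had 350 bp in R100 and 300 bp in R500. Of the 20 genes, 9 were covered in no list, beside 74.9% of protein-coding genes and 60.7% of CpG-rich ones.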

How the data were processed

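H3K27me3 ChIP-seq peak lists were analysed for 5 lines, 1 list per line. The authors immunoprecipitated H3K27me3 chromatin, sequenced it and input libraries, and found peaks by Poisson statistics in tiled genomic windows. The values the authors deposited are first and last positions of peaks in base pairs, with no count or score. The submitters' processing notes name Bowtie and mm9. The study's methods set a p-value limit on each bin for its promoter clusters, which cannot be applied to lists without p-values. Whether that limit also made the lists, and whether replicates were pooled in them, is not given in the sources used here. RRBS was not analysed here, and some genes of the other lists are not reported here.

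Samples were matched to lines by their labels. In R100 and R500 each peak is listed 2 times and was counted once. Covered bases were counted from 5 kb upstream of the TSS, the 5′ end of the gene record, to the gene end in GENCODE vM1 of NCBIM37, and a gene with at least 150 bp was covered. The largest peak position lay within the chromosome's length in that build for all 21 chromosomes. Sequences were read from NCBIM37. Python 3.11.15, numpy 2.4.6, pandas 2.3.3, scipy 1.17.1 and matplotlib 3.10.9 were used. The counting step was tested on simulated data, where 0 of 2000 windows differed from a base-by-base count.

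The 10 genes and the other gene lists were chosen with earlier results of these data known. Genes of the other lists were named where covered in all 5 lists, in the parental list but in neither R1000 nor R4000 (no gene met this), or in R100 and R500 only, up to 8 per list, with the 5 genes nearest to Atf3 over the lists and the genes at the 3 widest parental peaks. With 1 list per line, no test was made. The alternatives were any covered base, 3 other windows, peaks at least 500 bp wide, lists of equal number, peaks within 1000 bp joined, another TSS and 2 other backgrounds.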

Additional observations from a re-analysis of the deposited data

Results flagged for a closer look

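At 3 genes of the other lists, both lines of lower dose lay above the parental line in covered bases and both lines of higher dose lay below it. For Batf3, the AP-1 family gene on the same chromosome as Atf3, the difference from the parental line was 1300 bp (R100), 1300 bp (R500), -100 bp (R1000) and -150 bp (R4000). For Dusp4, a MAP kinase phosphatase gene, it was 1800 bp (R100), 1500 bp (R500), -850 bp (R1000) and -1400 bp (R4000). For Gadd45g, a DNA damage response gene, it was 1850 bp (R100), 1200 bp (R500), -187 bp (R1000) and -587 bp (R4000). With 1 list per line, the difference between the lines of lower and higher dose was not tested, and the lengths of the whole lists lay in the same order relative to the parental list. Among the 973 protein-coding genes covered in each list, 95.1% (R100) and 97.3% (R500) lay above their parental value. At or above it lay 58.2% in R1000 and 36.9% in R4000. The share of all genes with this pattern was not counted. None of the 10 immediate early stress genes had this pattern.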

How the results depend on the processing

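No paired analysis was possible because each line has 1 list and no result comes from a test. Atf3 had the most covered bases of the 10 genes in each line under all 8 alternatives. None of these took the share of the window, by which Egr3 lay above Atf3 in R100 and R1000. With the 5 kb upstream only, 4 of the 10 genes were covered in R100 and 4 in R500, since the cover of Jun, Fosb, Egr1 and, in R100, Ier2 lies mostly or wholly within the genes. With peaks at least 500 bp wide, 3, 6, 5, 4 and 3 of the 10 genes were covered from the parental line to R4000. The shares of protein-coding genes at this width were 1.63%, 6.43%, 5.83%, 2.02% and 1.3%. At this width 2 genes, Atf3 and Egr3, were covered in all 5 lists, and the share of protein-coding genes so covered is not given here. The counts under the other alternatives were within 1.5 times those reported. The share of genes covered was 5.82%, 15.8%, 12.7%, 6.63% and 5.39% (parental line to R4000) over all annotated genes and 11.6%, 34.4%, 26.6%, 14.6% and 12.3% over those with a CpG-rich promoter. The order of R4000 and the parental line at Atf3 changed with the setting, at 3400 against 3700 bp upstream only, 7700 against 9469 bp with peaks within 1000 bp joined, and 4150 against 3250 bp with peaks at least 500 bp wide, and so did the ratio of the sums over the 10 genes, from 0.934 with peaks joined to 1.31 with wide peaks. With lists of equal number, Fosb had 0 bp in R500, and Egr1 and Ier2 had 0 bp in R100. Depth is unknown, so no value separates a shorter list from less H3K27me3, and a gene without a peak is not shown to lack the mark.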
